A study of Mus musculus with 2 samples.

Results

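Aerocytes are the large, thin capillary endothelial cells that lie against alveolar epithelium and form much of the gas exchange surface of the lung. They share the alveolar capillary bed with the general capillary cells, which are smaller, hold the lung's capillary progenitors and can give rise to aerocytes during repair. Aerocytes are known for the endothelin receptor Ednrb, the peptide ligand apelin (Apln) and the membrane carbonic anhydrase Car4, whereas the apelin receptor (Aplnr) marks the general capillary cells.

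Here aerocytes were picked cell by cell from whole-lung single-cell RNA sequencing. A cell was kept when it had reads of at least 3 of the 8 genes Ednrb, Apln, Fibin, Kdr, Chst1, Car4, Kitl and Prx, of at least 2 of the 5 genes Ednrb, Apln, Fibin, Chst1 and Car4, and of at most 1 of the alveolar type 1 epithelial genes Ager, Rtkn2 and Akap5. The rule kept 1715 of 32445 cells (5.29%), 1097 of 17227 in wild type (WT) and 618 of 15218 in mice without the chemokine receptor Ccr2 (CCR2KO). All mice were of the C57BL/6 strain and all had received silica, a mineral dust that scars the lung, at 400 mg/kg into the trachea, so no untreated lung enters any comparison. The CCR2KO mice are labelled CCR2-/-, a deletion carried by every cell of the body. Lungs were taken on days 3, 7 and 21. Each genotype was run as 1 library, on a microwell cartridge loaded with 20000 cells, and genotype and cartridge cannot be told apart.

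Within a library, each cell suspension carried its own antibody barcode, here called a tag. There were 9 tags in WT and 8 in CCR2KO, with 101 to 156 aerocytes per WT tag and 61 to 98 per CCR2KO tag. Days and animals are not tied to tags in the labels. No comparison between days was made, and every p-value below measures the spread between tagged suspensions. Values are given as CPM, the reads of a gene summed over the aerocytes of a tag, per 1000000 reads of the tag's TMM total. That total is the tag's reads times a factor that edgeR estimates, so the CPM of a tag need not add up to 1000000. A sum over cells does not by itself tell fewer cells with a transcript from fewer reads per cell. Over all cells, a WT tag held 62519503 to 93488824 reads and a CCR2KO tag 55677280 to 86747967. The aerocytes of a tag together held 2.12e+06 to 7.88e+06 reads. Ccr2 itself ran from 52.8 to 100 CPM over all cells of a WT tag and from 1.40 to 4.36 CPM over those of a CCR2KO tag, here per 1000000 reads with no such factor. Its reads were found in 4.92% of the WT aerocytes and 0.809% of the CCR2KO ones. The 2 libraries shared 291 cell barcodes, 1 of them between aerocytes.

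The genes that chose the cells are described first, with no test. Car4 was detected in 92.0% of WT aerocytes, Kdr, the main receptor for vascular endothelial growth factor (VEGF), in 79.6%, and Kitl, the stem cell factor that binds Kit, in 78.0%. Ednrb was detected in 66.6%, Prx, a scaffold protein best known from myelinating Schwann cells, in 63.4%, Apln in 43.3% and Chst1, a sulfotransferase of keratan sulfate, in 25.7%. In CCR2KO aerocytes these 7 genes were detected in 92.1%, 77.8%, 76.2%, 71.5%, 65.7%, 44.8% and 27.5% of cells, in the same order. The eighth, Fibin, which encodes a small secreted protein named for its part in zebrafish fin buds, was detected in 58.3% of WT and 21.0% of CCR2KO aerocytes. Cells with exactly 3 of the 8 markers made up 16.3% of WT and 17.8% of CCR2KO aerocytes, and these had Car4 in 86.0% and 83.6% and Cdh5, the endothelial cadherin, in 64.8% and 50.0%. The 200 WT and 116 CCR2KO cells just outside the rule, which lacked Kdr, Kitl and Prx, had Cdh5 in 34.0% and 28.4%. All 8 markers, and so also Fibin, were found in 44 WT aerocytes (4.01%) and in 4 CCR2KO aerocytes (0.647%).

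Genes of the endothelium that the rule did not use were present in most of these cells. Cldn5, the tight junction claudin of endothelium, was detected in 88.4% of WT and 87.1% of CCR2KO aerocytes, Cdh5 in 86.2% and 82.0%, and the adhesion molecule Pecam1 in 82.7% and 79.9%. Prox1, the transcription factor that defines lymphatic endothelium, was found in 1.00% and 1.13%. These genes place the cells in the endothelium but do not separate aerocytes from other capillary cells. The name aerocyte rests on the genes of the rule. Reads of other cell types were also present: Sftpc, the surfactant gene of alveolar type 2 cells, in 85.2% of WT and 90.9% of CCR2KO aerocytes with a median of 3 and 4 reads in those cells, the fibroblast collagen Col1a1 in 40.7% and 35.1%, and the leukocyte gene Ptprc in 15.7% and 9.71%. Over the 16 listed leukocyte genes the summed level ran from 1803 to 9549 CPM in WT tags and from 344 to 9396 CPM in CCR2KO tags. The 12 alveolar type 2 genes ran from 1006 to 10531 CPM and from 952 to 18344 CPM, and the 14 fibroblast and mural genes from 2206 to 5254 CPM and from 1367 to 7966 CPM. Scgb1a1, the secretoglobin gene of club cells, was read in 79.7% of WT and 89.3% of CCR2KO aerocytes. It ran from 125 to 7868 CPM in WT tags and from 193 to 45734 CPM in CCR2KO tags. In CCR2KO tags 2, 3 and 4 it stood at 34467 CPM or more. A single cell held 70.9% of its reads in WT aerocytes and 38.6% in CCR2KO ones. The part of these reads in any result below was not tested, except where a value without the cells concerned is given.

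The nearest relatives of aerocytes in these tables were 3381 general capillary cells, chosen in the same way from Gpihbp1, Aplnr, Plvap, Kit, Cd93, Sema3c and Hilpda and not kept by the aerocyte rule. Of the aerocytes, 535 (31.2%) also met that second rule, 33.7% in WT and 26.7% in CCR2KO. The levels that follow are a description, since both groups of cells were picked by reads in the same cells. Of 3766 genes with a mean of at least 50 CPM in either group, 68 were higher in aerocytes and 69 lower in each of the 17 tags.

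Outside the rule, the genes that were higher in aerocytes of every tag included several known from this cell type. Emp2, a membrane protein tied to caveolae and to the alveolar barrier, stood at 1535 ± 356 CPM (SD, n = 17 tags) in aerocytes and 255 ± 86.7 CPM in general capillary cells. The T-box transcription factor Tbx2 stood at 362 ± 78.2 against 67.1 ± 42.1 CPM, and its relative Tbx3 at 282 ± 67.9 against 92.5 ± 21.5 CPM. Cyp4b1, a cytochrome P450 of lung, stood at 781 ± 216 against 274 ± 104 CPM. For these 4 genes the lowest aerocyte tag lay above the highest general capillary tag. Of 16 listed aerocyte genes that the rule did not use, 8 were higher in aerocytes in all 17 tags, and their median ratio was 2.48. Genes with no such listing stood beside them, among them Ccdc184 (98.2 against 10.4 CPM), Nhlrc2 (463 against 85.6 CPM) and AW112010 (599 against 120 CPM).

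Genes of signalling and of the matrix lay on both sides. The VEGF co-receptor Nrp1 stood at 756 ± 155 CPM in aerocytes and 392 ± 63.4 CPM in general capillary cells, whereas the ligand Vegfa stood at 99.4 ± 31.0 and 216 ± 55.0 CPM. Endothelin 1, encoded by Edn1 and bound by Ednrb, was lower in aerocytes (67.5 ± 31.5 against 173 ± 46.1 CPM). Sema3g, a secreted semaphorin, was lower too (91.8 ± 33.1 against 262 ± 43.3 CPM), as was the scavenging chemokine receptor Ackr3 (170 ± 68.5 against 384 ± 95.7 CPM). Timp3, a matrix-bound inhibitor of metalloproteinases, was higher in aerocytes (1449 ± 489 against 568 ± 137 CPM). Each of these 6 differences had the same direction in 17 of 17 tags. Vwf, the von Willebrand factor of larger vessels, and Gja4, an arterial connexin, were lower in aerocytes in every tag, at 98.8 against 351 CPM and 58.2 against 180 CPM. Hopx, a gene of alveolar type 1 cells, was higher in aerocytes in every tag (420 against 166 CPM), while Ager, which the rule limits, was read in 12.7% of WT and 10.8% of CCR2KO aerocytes.

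**Figure D1:**
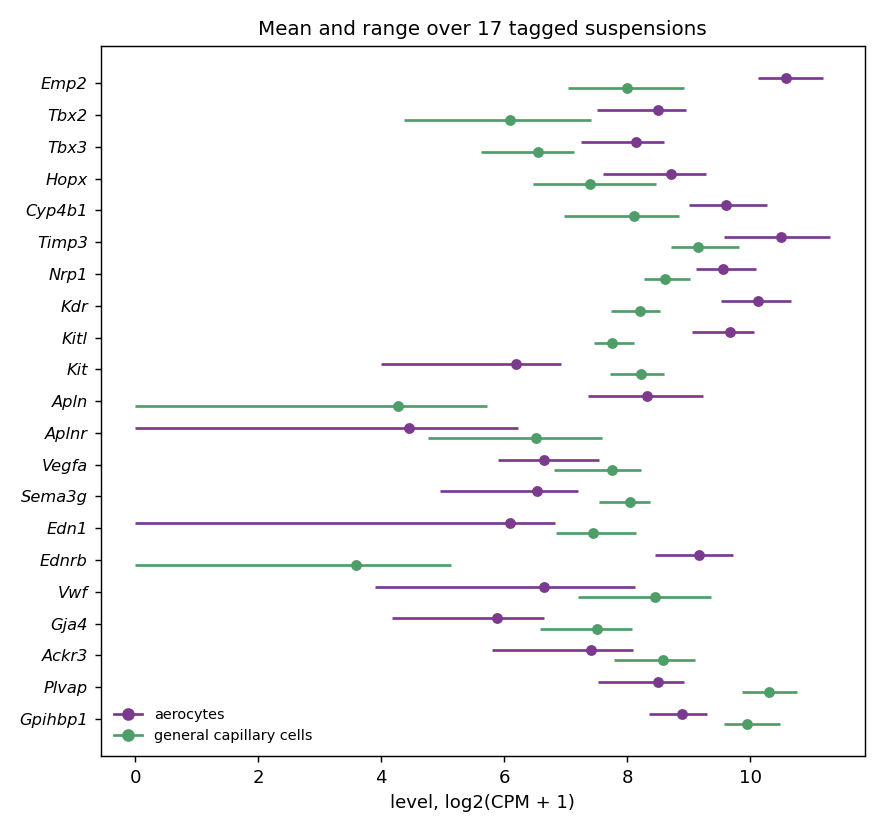
Levels of 21 genes in aerocytes and general capillary cells, on a log2(CPM + 1) axis; points are means and lines run from the lowest to the highest of 17 tagged suspensions. Apln, Ednrb, Kdr and Kitl chose the aerocytes and Aplnr, Kit, Plvap and Gpihbp1 the general capillary cells, so their separation is set by the choice; Emp2 and Tbx2 were in neither rule, and their lines do not overlap.

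Aerocytes made up a smaller share of the cells in CCR2KO than in WT. The share ran from 4.930% to 8.33% of all cells in the 9 WT tags (median 6.32%) and from 3.04% to 4.927% in the 8 CCR2KO tags (median 4.11%). The groups did not overlap, but the lowest WT tag and the highest CCR2KO tag nearly touched. They overlapped in every other rule, filter or depth tried. Without Fibin in the rule, WT tags began at 4.05% and CCR2KO tags reached 4.64%. The same 2 values were 4.27% and 4.73% with a mitochondrial limit of 10%. They were 3.95% and 4.37% with 4 or more of the 8 markers, and 4.85% and 4.96% with predicted doublets left out. The means were 6.42% ± 1.30 (SD, n = 9) and 4.08% ± 0.701 (SD, n = 8), a difference of -2.35 percentage points (two-sided exact permutation p = 0.000329, adjusted over the 2 shares tested 0.000658). The endothelium as a whole stood at 26.2% ± 4.55 of cells in WT and 19.8% ± 2.69 in CCR2KO, and general capillary cells at 12.2% ± 1.52 and 8.54% ± 1.26. The shares of both were thus lower in CCR2KO as well, which was not tested. Shares are of cells that came through enzyme digestion and a density gradient, and can be set by how many other cells a lung gave.

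Among endothelial cells alone the aerocyte share depended on Fibin. With the full rule it was 24.5% ± 2.52 in WT (n = 9) and 20.6% ± 2.70 in CCR2KO (n = 8), with overlapping groups (exact permutation p = 0.00782, also after adjustment). When Fibin was left out of the rule, the shares were 21.1% ± 2.75 and 19.3% ± 2.55, a difference of -1.82 percentage points that did not pass (exact permutation p = 0.178). When each cell was also thinned to 5000 reads, they were 18.4% ± 2.92 and 17.2% ± 1.83 (exact permutation p = 0.351). The mean share of all cells was lower in CCR2KO without Fibin too, at 5.45% ± 1.11 against 3.79% ± 0.657 (exact permutation p = 0.0021).

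**Figure D2:**
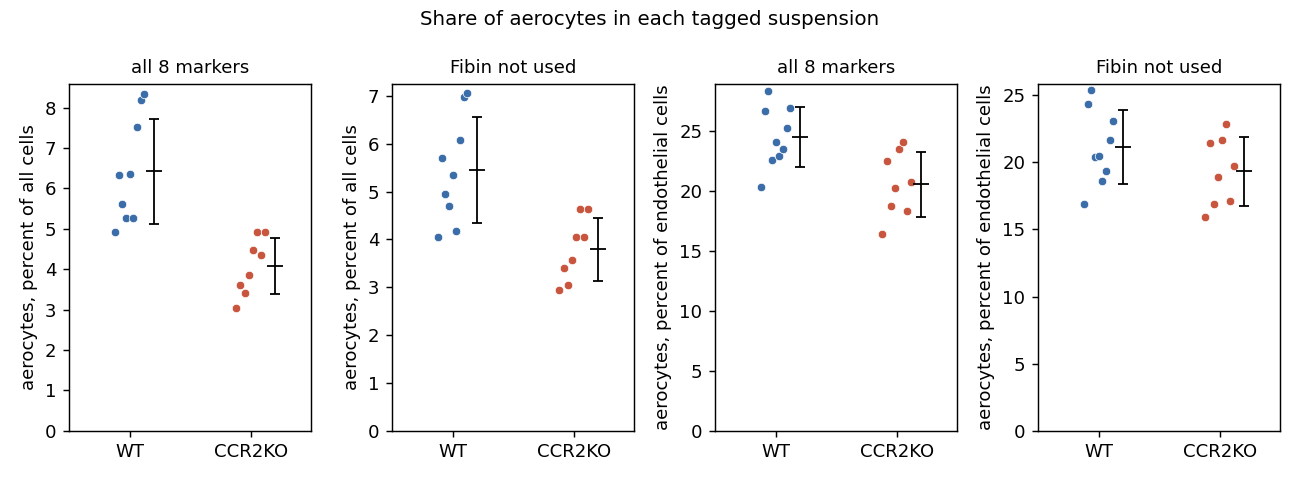
Share of aerocytes in each of 9 WT and 8 CCR2KO tagged suspensions, as a percent of all cells (left pair) and of endothelial cells (right pair), with the full rule and with Fibin left out of it. Points are tags, whose sideways place has no meaning, and bars are mean and SD; of all cells the means are 6.42% and 4.08%, whereas of endothelial cells without Fibin they are 21.1% and 19.3% and the points overlap.

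Gene levels in aerocytes were compared between genotypes over the tags with edgeR's quasi-likelihood test and Benjamini-Hochberg adjustment over 11600 genes. At an adjusted p under 0.05, 10 genes (0.0862%) differed: 8 were lower in CCR2KO (0.069%) and 2 were higher (0.0172%). Of the 8 rule markers, whose reads also chose the cells, Fibin was among the 10. The number of calls was 6 without tag 1 or without tag 7 of WT and 17 without tag 1 of CCR2KO, and DESeq2 called 52 (0.448%), among them 9 of the 10. At an unadjusted p under 0.05 there were 709 of the 11600 genes.

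Fibin was lower in CCR2KO aerocytes in every tag. Its level was 471, 314, 692, 264, 320, 532, 443, 600.0 and 478 CPM in WT tags 1 to 9. In CCR2KO tags 1 to 8 it was 135, 50.0, 117, 122, 50.9, 58.2, 181 and 99.9 CPM. The lowest WT tag, 264 CPM, lay above the highest CCR2KO tag, 181 CPM. Groups that did not overlap in this direction were found for 25 genes (0.216% of those tested). The log2 change was -2.17 (SE 0.27, edgeR adjusted p = 0.000289). Because Fibin also helped to choose the cells, the test was repeated on cells chosen by the other 7 markers: there Fibin ran from 255 to 692 CPM in WT and from 8.52 to 168 CPM in CCR2KO, with a log2 change of -2.39 (SE 0.39, edgeR adjusted p = 0.0069, 1 of 12 calls among 11070 genes, 0.108%). This rule kept 931 WT and 575 CCR2KO cells, and 50.9% and 15.1% of them had a Fibin read.

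Both the share of aerocytes with Fibin and the reads in those cells were smaller in CCR2KO. A Fibin read was found in 640 of 1097 WT aerocytes and in 130 of 618 CCR2KO aerocytes, with medians of 22 and 9.5 reads per positive cell. Per tag the share ran from 43.1% to 62.7% (median 59.5%) in WT and from 13.0% to 30.6% (median 21.1%) in CCR2KO. After thinning to 5000 reads per cell, 46.8% and 14.0% of aerocytes had a read. No single cell carried the level: the cell with the most reads held 1.12% of the Fibin reads in WT and 3.41% in CCR2KO. Median depth was 31855 and 30655 reads per aerocyte. Of cells with a Ptprc read outside the endothelium, in which Fibin was taken as background, 2.42% in WT and 1.60% in CCR2KO had a Fibin read, at median depths of 33750 and 25535 reads.

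In cells outside the endothelium the difference was not the same. There Fibin ran from 7.32 to 19.1 CPM in WT and from 12.0 to 21.4 CPM in CCR2KO (log2 change 0.37, SE 0.17, edgeR adjusted p = 0.192). The genotype difference in aerocytes minus that in the other cells was -2.69 on the log2 scale (SE 0.32, edgeR adjusted p = 0.00067). With aerocytes chosen without Fibin it was -3.11 (edgeR adjusted p = 0.00949). The cells outside the endothelium were the same in both runs. They left out every cell that the full rule kept, so Fibin reads helped to choose them. A run with these cells also chosen without Fibin was not made. Fibin was 1 of 2 genes called among the 17790 genes of the full-rule comparison (0.0112%), whose median difference was -0.25. The second was Slfn5, a member of the interferon-induced Schlafen family, with a difference of 1.35 (SE 0.19, edgeR adjusted p = 0.00311), from a log2 change of 0.14 in aerocytes and -1.27 outside the endothelium. In general capillary cells Fibin was scarce, at 1.65 to 33.5 CPM in WT and 0 to 14.2 CPM in CCR2KO (log2 change -1.26, SE 0.79, edgeR adjusted p = 0.684). These cells, too, left out every cell that the full rule kept, so their low Fibin is set in part by the choice. The genotype difference in aerocytes minus that in general capillary cells was -0.93 with an SE of 0.77 and did not pass (edgeR adjusted p = 1.00). It ran from -0.918 to -0.0116 over 3 alternatives, 1 of them with both cell groups chosen without Fibin. With 1 tag left out it ran from -1.33 to -0.47, and no run passed. A difference between the 2 capillary types was thus not shown.

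**Figure D3:**
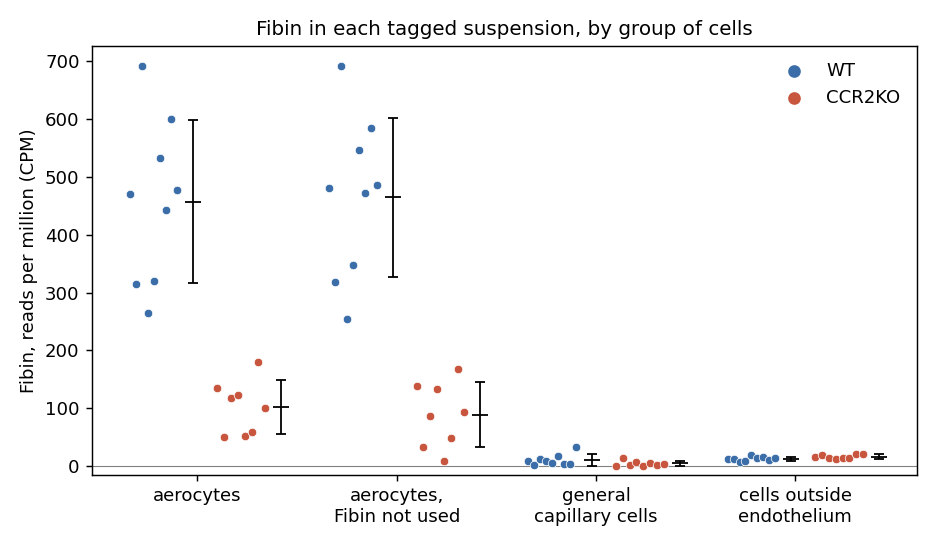
Fibin in CPM for each tagged suspension (WT blue, CCR2KO red), in aerocytes, in aerocytes chosen without Fibin, in general capillary cells and in cells outside the endothelium; bars are mean and SD. WT aerocyte tags lie between 264 and 692 CPM and CCR2KO tags between 50.0 and 181 CPM, while all tags of the other 2 cell groups lie under 34 CPM. Those 2 groups leave out every cell that the full rule kept, so their separation from aerocytes is set in part by the choice.

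Fibin has 1 transcript with 1 exon at chr2:110360917-110363183 on the minus strand (GRCm38, GENCODE M21). Of 35 annotated gene starts within 1000 kb on either side, 10 were in the tables and 4 were abundant enough to test in aerocytes. Among these was Slc5a12, a sodium-coupled transporter of lactate and other monocarboxylates, which begins 234 kb beyond the start of Fibin on the plus strand (chr2:110597298-110647779) and was singled out after its values were seen. Slc5a12 stood at 33.0, 17.9, 32.3, 30.8, 34.7, 7.16, 32.3, 17.0 and 31.4 CPM in WT tags 1 to 9. In CCR2KO tags 1 to 8 it stood at 6.55, 11.1, 5.47, 0, 0, 0, 0.927 and 2.00 CPM. All WT tags but tag 6 lay above every CCR2KO tag. A count of 0 in the 3 empty tags allows levels of up to 0.701 to 0.731 CPM, by counting error only. The log2 change was -3.02 (SE 0.87), which did not pass in edgeR (adjusted p = 0.307) and passed in DESeq2 (log2 change -2.97, adjusted p = 0.0208). A Slc5a12 read was found in 61 of 1097 WT aerocytes and in 6 of 618 CCR2KO aerocytes. It was found in 2 of 2090 WT general capillary cells and in 0 of 1291 CCR2KO ones, which allows a share of cells with a read of up to 0.232%. A cell without a read may still hold the transcript. The other 2 tested neighbours, Lin7c and Ccdc34, had log2 changes of 0.20 and 0.13 (edgeR adjusted p = 0.991 for each).

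The other 7 rule markers are described with no test, since their reads chose the cells in both genotypes. The endothelin receptor Ednrb ran from 348 to 628 CPM in WT (median 589) and from 453 to 839 CPM in CCR2KO (median 585), with a log2 change of 0.25 (SE 0.15). Apln ran from 164 to 598 CPM (median 263) and from 187 to 548 CPM (median 326), with a log2 change of 0.21 (SE 0.25). Kdr, Chst1, Car4, Kitl and Prx had log2 changes of 0.20, 0.35, 0.07, 0.25 and 0.37, and the groups overlapped for each of the 7. Of the 16 further aerocyte genes edgeR called none, with 3 at an unadjusted p under 0.05, and DESeq2 called 1, Icam1. There 10 were above and 6 below 0 with a median log2 change of 0.10, where the median of all genes tested was 0.01. Without CCR2KO tag 1 the median was 0.05. Among them Igfbp7, a secreted binding protein of growth factors, had a mean of 2029 ± 320 CPM (n = 9) in WT and of 2532 ± 335 CPM (n = 8) in CCR2KO (log2 change 0.32, edgeR adjusted p = 0.423).

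**Figure D4:**
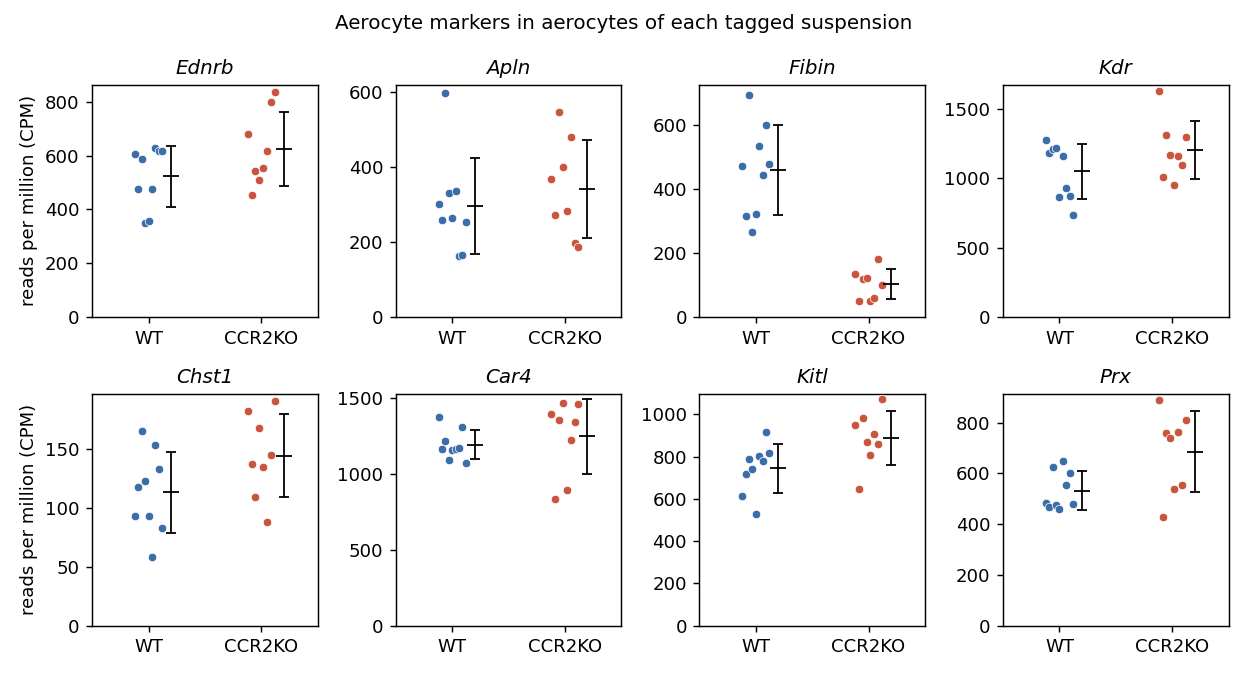
The 8 rule markers in aerocytes of each of 9 WT and 8 CCR2KO tagged suspensions, in CPM on axes that start at 0; bars are mean and SD. For Fibin all WT points (264 to 692 CPM) lie above all CCR2KO points (50.0 to 181 CPM), whereas for the other 7 genes the groups overlap.

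Besides Fibin, 7 genes were lower in CCR2KO aerocytes, and their changes had about the same size in other cells. Cd99, a surface glycoprotein that leukocytes and endothelium use during transmigration, ran from 426 to 634 CPM in WT (median 557) and from 228 to 432 CPM in CCR2KO (median 342). The groups overlapped only by WT tag 6 and CCR2KO tag 1. Its log2 change was -0.74 (SE 0.13, edgeR adjusted p = 0.0233), beside -0.83 in general capillary cells and -0.91 outside the endothelium. The difference from general capillary cells was 0.08 with an SE of 0.15. With tags left out in turn, the adjusted p for Cd99 lay between 0.0066 and 0.0664, and 5 of the 17 did not pass.

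The other 6 were ribosomal. The ribosomal RNA genes Rn28s1 and Rn45s changed by -0.92 and -0.53 on the log2 scale, with edgeR adjusted p-values of 0.000289 and 0.00778. The ribosomal protein genes Rps29, Rpl35, Fau and Rps28 changed by -0.68, -0.72, -0.44 and -0.47, with edgeR adjusted p-values of 0.000289, 0.000557, 0.0292 and 0.0431. With 1 tag left out in turn, Rps28 did not pass in 15 of 17 runs and Fau in 9 of 17. In the other alternatives they did not pass in 8 and 5 of 11. In general capillary cells the 6 changes were -0.89, -0.47, -0.70, -0.69, -0.40 and -0.67, and outside the endothelium -0.92, -0.59, -0.84, -0.72, -0.62 and -0.64, in that order. Reads of such genes can fall on repeat or pseudogene copies, so their assignment is uncertain. Detected genes differed as well: with each cell thinned to 5000 reads, a WT aerocyte had 999 ± 53.4 detected genes (n = 9) and a CCR2KO aerocyte 884 ± 65.3 (n = 8, exact permutation p = 0.00214), and in general capillary cells the means were 875 and 769 genes. The part of this difference in the gene results was not tested.

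The 2 genes called higher, Igha and Jchain, encode the constant region of immunoglobulin A and the chain that joins its units, both products of plasma cells. Igha ran from 0.987 to 2.98 CPM in WT tags and from 13.8 to 57.1 CPM in 7 CCR2KO tags, with 7305 CPM in CCR2KO tag 6. A single cell of tag 6 held 97.3% of all Igha reads in CCR2KO aerocytes, 96.8% of the Jchain reads and 99.7% of the reads of Iglc1, an immunoglobulin light chain. The log2 change of Igha was 8.94 with that tag and 4.14 without it (edgeR adjusted p = 0.00778 and 0.000416). For Jchain the change was 7.51 with the tag (edgeR adjusted p = 0.0431) and 2.83 without it (adjusted p = 0.289), and it did not pass in 10 of the 17 runs with 1 tag left out. An Igha read was present in 39.0% of CCR2KO aerocytes, in 30.1% of general capillary cells and in 39.1% of cells with a Ptprc read outside the endothelium, at a median of 1 read in positive aerocytes, and in 7.66%, 4.78% and 6.60% of these cells in WT. In CCR2KO the aerocyte share lay at the level of the cells with a Ptprc read, so it is not given as expression by aerocytes. The source of these reads was not tested. Outside the endothelium Igha ran from 1.31 to 221 CPM in WT tags and from 452 to 6547 CPM in CCR2KO tags.

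Gene lists were described by counts and medians. For comparison, 709 of all 11600 genes tested had an unadjusted p under 0.05 in edgeR. Of 43 tested genes of the interferon response, edgeR called none, with 11 at an unadjusted p under 0.05, and DESeq2 called 2, Ifitm3 and Isg15. Of the 43, 39 were below 0, and their median log2 change was -0.64, whereas 48.8% of all genes tested were below 0 with a median of 0.01. Ifitm3, a membrane protein that blocks virus entry, ran from 1851 to 3162 CPM in WT and from 1425 to 1900 CPM in CCR2KO (log2 change -0.52, SE 0.10, edgeR adjusted p = 0.059). Isg15, a ubiquitin-like protein induced by interferon, averaged 148 ± 84.3 CPM in the WT tags and 56.3 ± 30.2 CPM in the CCR2KO tags (log2 change -1.40, SE 0.36, adjusted p = 0.216). Xaf1, a protein tied to cell death that interferon induces, averaged 194 ± 43.3 and 106 ± 51.0 CPM (log2 change -0.87, adjusted p = 0.223). In each of the 3 the groups overlapped. In general capillary cells the changes of Ifitm3, Isg15 and Xaf1 were -0.23, -1.24 and -0.52. The list lay below 0 in other cells as well: 38 of 44 genes with a median of -0.62 in general capillary cells, and 43 of 44 with a median of -0.79 outside the endothelium. With 1 tag left out the aerocyte median lay between -0.71 and -0.43, and in aerocytes without a Ptprc read it was -0.65, with 40 of 41 genes below 0. The difference between aerocytes and general capillary cells was not called by edgeR for any gene of the list.

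Antigen presentation genes leaned the same way without a call. All 7 tested genes of MHC class II were below 0, with a median of -0.58. Neither edgeR nor DESeq2 called any of them, and 3 had an unadjusted p under 0.05 in edgeR. H2-Aa, a chain of the class II molecule I-A, ran from 94.2 to 597 CPM in WT and from 50.4 to 262 CPM in CCR2KO (log2 change -0.95, SE 0.33, edgeR adjusted p = 0.52). These genes are also abundant in leukocytes, whose Ptprc was read in 15.6% ± 4.56 of WT and 9.86% ± 3.63 of CCR2KO aerocytes. In aerocytes without a Ptprc read the 7 genes were again below 0, with a median of -0.74. Over all aerocytes with 1 tag left out, the median lay between -1.02 (without CCR2KO tag 2) and -0.53 (without WT tag 1). In aerocytes chosen without Fibin it was -0.42. General capillary cells had 8 of 8 genes below 0 with a median of -0.50. Of 15 MHC class I genes 12 were below 0, with a median of -0.19 that became -0.09 without CCR2KO tag 7. Neither tool called any of the 15, and 1 had an unadjusted p under 0.05 in edgeR.

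NF-kB and acute phase genes were spread to both sides. Of 28 tested, edgeR called none, with 7 at an unadjusted p under 0.05, and DESeq2 called 2, Stat3 and Icam1. There were 18 above 0, and the median log2 change was 0.22, or 0.11 without CCR2KO tag 3. Stat3, the transcription factor of interleukin-6 signals, ran from 86.3 to 163 CPM in WT and from 172 to 220 CPM in CCR2KO, with no overlap (log2 change 0.59, SE 0.14, edgeR adjusted p = 0.151); such a pattern upwards was found for 5 genes (0.0431%). Icam1, an adhesion molecule for leukocytes, had a median of 299.7 CPM in WT tags and 442 CPM in CCR2KO tags, with overlapping groups (log2 change 0.60, edgeR adjusted p = 0.244). Of the 18 tested genes of leukocyte adhesion and chemokines, edgeR called 1, Cd99, with 5 at an unadjusted p under 0.05, and DESeq2 called 2, Cd99 and Icam1. Of these 18 genes 12 were above 0, with a median of 0.22. Of 7 tested genes for Ccr2 ligands and atypical chemokine receptors, edgeR and DESeq2 called none, and 4 had an unadjusted p under 0.05 in edgeR. Of the 7, 6 were above 0 and the median was 0.59. The 1 below 0 was Ccrl2, a receptor that presents the protein chemerin, which averaged 98.4 ± 37.5 CPM in WT and 46.4 ± 18.3 CPM in CCR2KO (log2 change -1.08, SE 0.27, edgeR adjusted p = 0.201). The Ccr2 ligand Ccl12 ran from 0 to 30.4 CPM in WT and from 0.286 to 377 CPM in CCR2KO (log2 change 3.47, SE 1.18, edgeR adjusted p = 0.509). Ccl2, the main ligand of Ccr2, ran from 38.8 to 623 CPM in WT and from 23.4 to 522 CPM in CCR2KO.

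Of 146 tested genes in 7 lists that describe capillary work, edgeR called 0, with 16 at an unadjusted p under 0.05, and DESeq2 called 2, Ndrg1 and Timp3. The lists held 25 genes of VEGF, Notch and apelin signals, 23 of vessel tone and coagulation, 19 of junctions and caveolae, 23 of basement membrane, 20 of hypoxia and glycolysis, 15 of endoplasmic reticulum stress and 23 of the cell cycle, whose medians lay between -0.05 and 0.21. S1pr1, the sphingosine 1-phosphate receptor that tightens endothelial junctions, averaged 762 ± 109 CPM in the WT tags and 1007 ± 193 CPM in the CCR2KO tags (log2 change 0.40, edgeR adjusted p = 0.315). Timp3 ran from 762 to 1647 CPM in WT and from 1248 to 2509 CPM in CCR2KO (log2 change 0.62, edgeR adjusted p = 0.223). Ndrg1, a gene that hypoxia induces, ran from 22.4 to 57.3 CPM and from 33.2 to 234 CPM (log2 change 1.51, edgeR adjusted p = 0.079). Mki67 and Top2a, both genes of dividing cells, had reads in 6.29% and 6.84% of WT aerocytes and in 5.83% each of CCR2KO aerocytes.

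**Figure D5:**
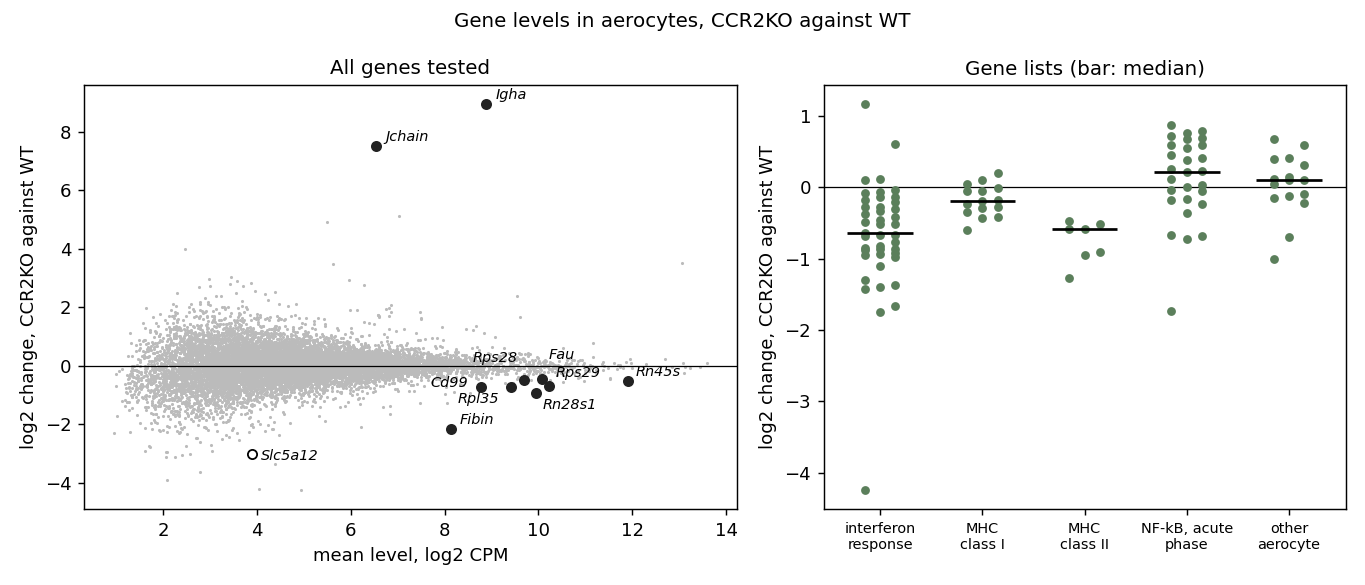
Left: log2 change in CCR2KO against WT aerocytes for each of 11600 genes, plotted against its mean level (log2 CPM); filled points are the 10 genes called by edgeR and the open point is Slc5a12, which was not called. Right: log2 changes of the tested genes of 5 lists with their medians, which lie at -0.64 for the interferon response, -0.19 for MHC class I, -0.58 for MHC class II, 0.22 for NF-kB and acute phase and 0.10 for the other aerocyte genes; edgeR called none of these genes.

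Whether any gene's genotype difference was unequal in aerocytes and general capillary cells was tested over 13705 genes, and edgeR called 0 (0%) at an adjusted p under 0.05, with 626 at an unadjusted p under 0.05. DESeq2 called 61 (0.445%) in the same comparison. In general capillary cells themselves, 94 of 12547 genes (0.749%) differed between the genotypes, and 7 of the 10 aerocyte calls were among them, all but Fibin, Igha and Jchain. Outside the endothelium it was 2164 of 18628 genes (11.6%), from many more cells, with 9 of the 10 aerocyte calls among them, all but Fibin.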

How the data were processed

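The authors deposited 1 table of raw counts per genotype, with genes in rows, cells in columns and no normalization, per the file headers. The submitters' processing notes name the GRCm38 build with Bowtie2 2.4.2, cutadapt 2.10 and R 3.6.3; the counting rule, annotation and use of molecular identifiers are not given in the sources used here. The median nonzero entry was 10, so values were treated as reads, and intervals cover counting error only. Cells named by a tag were kept if 200 or more genes were detected and mitochondrial reads did not exceed 25%; cells the authors named doublet (680 and 531) were left out, and 2 columns were not used. A gene absent from 1 table was given 0 there.

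Reads were summed per tag and cell group and tested with edgeR 4.0.16 (quasi-likelihood test, filterByExpr, TMM; R 4.3.3), with genotype as the 1 factor, and CPM use TMM totals. Tags needed at least 10 cells. The difference between cell groups was the interaction of genotype and group with the tag as a block. Standard errors are the log2 change over the root of edgeR's F. DESeq2 1.42.0, filters, rules, depth and left-out tags were alternatives. On simulated data with 11091 genes the genotype test recovered 14.4% of 2-fold and 48.9% of 4-fold changes.

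The members, markers and gene lists were chosen with earlier results of these data known. Genes were named if they were rule markers, list members or other genes past the threshold (8 per direction), with ribosomal genes left out; the 6 ribosomal genes, Slc5a12, Slfn5, the list members that did not pass and the genes set beside general capillary cells were chosen after their values were seen. Same-numbered tags were not paired. Other tools were Scanpy 1.11.5 (with Scrublet), scipy 1.17.1, pandas 2.3.3, numpy 2.4.6 and matplotlib 3.10.9 under Python 3.11.15.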

Additional observations from a re-analysis of the deposited data

Results flagged for a closer look

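Of 40 groups of tags checked for a value far from the rest, 6 held one, where chance gives about 1 in 20. In WT tag 3 Apln stood at 598 CPM, with the other 8 WT tags at or below 337 CPM, and the ribosomal genes Rps29 and Rps28 stood below the other WT tags at 1156 and 740.3 CPM. Igha stood at 7305 CPM and Jchain at 1432 CPM in CCR2KO tag 6, where 1 cell held nearly all of their reads. Jchain stood at 5.28 CPM in WT tag 2, above the other WT tags. The genotype difference of Fibin differed between aerocytes and cells outside the endothelium by -2.69 on the log2 scale, by a test of the difference itself (SE 0.32, edgeR adjusted p = 0.00067). Fibin reads helped to choose those aerocytes. With aerocytes chosen by the other 7 markers the difference was -3.11 (edgeR adjusted p = 0.00949). The cells outside the endothelium were still those left over by the full rule, which used Fibin.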

How the results depend on the processing

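The lower share of all cells passed in each of 8 alternatives and with each tag left out. Differences ran from -2.39 to -1.20 percentage points in the alternatives and from -2.53 to -2.11 with 1 tag left out. The smallest, -1.20, came without Fibin in the rule at 5000 reads per cell (exact permutation p = 0.00448). The share of endothelial cells passed in 6 alternatives and with each tag left out (-4.48 to -3.36 percentage points), but not without Fibin in the rule (-1.82 percentage points) or without Fibin at 5000 reads (-1.22 percentage points). The number of genes called ran from 6 to 17 with 1 tag left out. It was 52 with DESeq2, 4 with cells that also met the general capillary rule left out, and 6 with a block by tag number; the other 8 alternatives gave 7 to 12. Against general capillary cells DESeq2 called 61 genes and edgeR called 0 with any tag left out. Fibin passed in all 11 alternatives (log2 change -2.39 to -2.08) and with each tag left out (-2.34 to -2.06). Of all these runs, only the rule without Fibin chose the aerocytes without its reads (log2 change -2.39, edgeR adjusted p = 0.0069). The change of Car4, a rule gene given with no test, turned its sign with a mitochondrial limit of 10% (-0.0013) and without cells that met the general capillary rule (-0.0214); the cause was not tested.

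A pairing by tag number was not shown. Deviations of same-numbered tags correlated between -0.000927 and 0.104 over 8 pairs, and 2 of 8 CCR2KO tags were closest to their own number. Whether groups of tags, such as those of a day, vary together was not tested. With the replicate block, the share of all cells differed by -2.11 percentage points (exact sign-flip permutation p = 0.00781), that of endothelial cells by -3.65 (exact permutation p = 0.0234), and Fibin by -2.23 (edgeR adjusted p = 0.0032), while Igha, Cd99, Fau, Rps28 and Jchain were no longer called. Cells without any read of Ptprc, Sftpc, Col1a1 and Ager could not be tested, since only 153 remained, with 6 tags at 10 or more. With 61 to 156 cells per tag, simulated 2-fold and 4-fold changes were called in 14.4% and 48.9% of cases. Simulated differences from general capillary cells of those sizes were called in 2% and 23%. That simulation drew both cell groups independently, with the spread estimated in aerocytes. It lacks variation that the cells of a tag share, so its recovery may differ from that of the real test.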
